A study of Mus musculus with 17 samples.

Results

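The right ventricle was compared with the left ventricle of neonatal mouse hearts at postnatal day 3, using 6 of the 17 libraries of a study of long noncoding RNA (lncRNA) in the maturing heart. The 6 libraries are 3 of left ventricle (LV) and 3 of right ventricle (RV), chosen by their labels. All mice were male C57Bl/6, untreated and without any engineered allele named in the labels. The study also sampled day 0 (3 LV and 3 RV libraries) and day 7 (3 LV and 2 RV libraries), and described day 3 as a transition between these ages. Total RNA from ventricle tissue was read as strand-specific, paired-end libraries, so every value is an average over all cell types of the chamber wall. In such tissue, fewer cells of a type and less RNA per cell cannot be told apart.

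The ventricles arise from different progenitor fields in the embryo, and after birth the work of the left ventricle rises while resistance in the lung circulation falls. Transcription factors of the T-box and Hand families pattern the chambers, and several lncRNA genes lie beside these factors. An lncRNA is a transcript with no long open reading frame. Some act on the gene beside them and many have no known role.

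Each table lists 23940 rows of lncRNA transcripts, identified by a NONCODE identifier (NONMMUT) or an assembly identifier (TCONS), with values read here as FPKM, fragments scaled to row length and library depth. Tables of protein-coding genes were not used, so cardiac muscle genes could not serve as a check of the tissue. Step sizes among low values gave an estimated depth of 13.8 M to 19.5 M fragments in the 6 day 3 libraries. RV replicate 2 stood apart from the other 16 libraries on principal component 3, with a score of 57.7 against -16.2 to 10.9. It also had the lowest estimated depth, beside 15.2 M to 20.5 M in the others. Its share of rows at 0 was 49.2%, just above their range of 34.1% to 48.7%. Replicate 2 of both ventricles had low values of one mitochondrial row, NONMMUT071594, at 25.8 in LV and 7.93 in RV, while the other day 3 libraries had 131.5 to 161.8. Low values of this row were the more common over the study. They were seen in 11 of the 17 libraries, at 7.93 to 25.8, among them all of day 7.

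In the main limma fit, 1 lncRNA row was called higher in the right ventricle at day 3 and none was called lower. Other settings gave other counts, with calls in both directions, as given in the closing section. Of 11079 rows tested with limma on log2(FPKM + 0.1), 1 had an adjusted p under 0.05, which is 0.00903% of those tested. An unadjusted p under 0.05 was reached by 651 rows, or 5.88%, of which 367 (3.31%) were higher in RV and 284 (2.56%) higher in LV. The median RV minus LV difference of all tested rows was 0.0011 on the log2 scale. Among the 1577 rows with a day 3 mean of at least 1 FPKM, 1401 differed by less than 0.5 on the log2 scale.

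**Figure D1:**
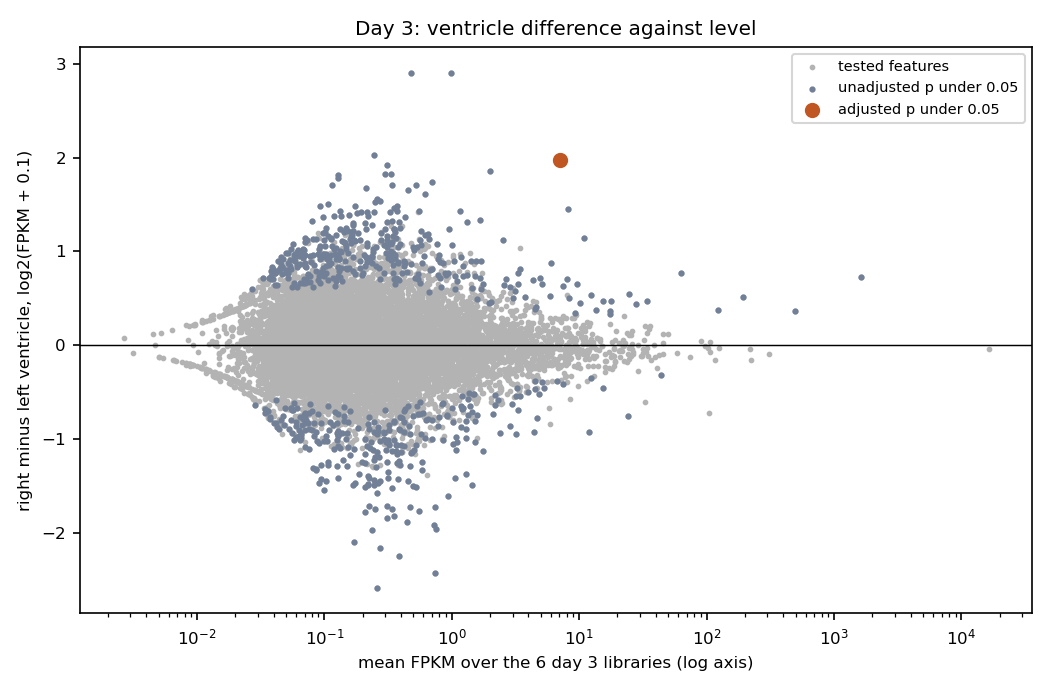
Right minus left ventricle difference in log2(FPKM + 0.1) against the mean FPKM over the 6 day 3 libraries (log axis), 1 point for each tested row with a mean above 0. The differences centre on 0 and widen at low levels, and the 1 row with an adjusted p under 0.05, drawn as a large point, lies at 1.98.

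The row called higher in the right ventricle was NONMMUT054852, at chr5:136520614-136522357 in the files' own positions. Its FPKM was 2.53, 3.16 and 2.63 in LV replicates 1 to 3, and 13.1, 8.59 and 12.3 in RV replicates 1 to 3. The groups did not overlap, and the lowest RV library, replicate 2, was still above the highest LV library. The means were 2.77 ± 0.337 (SD, n = 3) in LV and 11.3 ± 2.4 (SD, n = 3) in RV, a 4.09-fold ratio. The log2 difference was 1.98 with a standard error of 0.31 and a limma adjusted p of 0.0441. Leaving out any 1 of the 6 day 3 libraries ended the call, with limma adjusted p between 0.0687 and 0.411, while the log2 difference stayed between 1.86 and 2.16. Without RV replicate 2 the difference was 2.16, with a limma adjusted p of 0.069.

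NONMMUT054852 could not be matched to a transcript of the reference annotation (GENCODE M21, GRCm38), so the row has no gene symbol here. It lies between rows matched to Gm43123 and Lrwd1. Between these, the annotation places 16 coding genes: Rhbdd2, Por, Tmem120a, Styxl1, Mdh2, Srrm3, Hspb1, Ywhag, Ssc4d, Zp3, Dtx2, Upk3b, Upk3bl, Rasa4, Polr2j and Lrwd1. Upk3b is a marker of mesothelium, the cell layer that covers the heart, and Hspb1 is a small heat shock protein of muscle. Gene order alone does not say which of the 16 the row belongs to. Nor does gene order show whether the row overlaps a coding exon, of Upk3b or another of them. A row over a coding exon would count reads of that coding transcript. Of 9 listed genes of epicardium and mesothelium, 1 had a matched row, NONMMUT038950 at Wt1, a transcription factor of the epicardium. That row summed to between 0 and 0.0596 FPKM in LV and between 0 and 0.1004 in RV, and the part of such cells in the result was not tested. The other tested row of the stretch with NONMMUT054852, NONMMUT054841, had means of 1.80 in LV and 1.40 in RV, with a log2 difference of -0.36. Stretches between matches also held other listed genes of epicardium and mesothelium. With Aldh1a2 lay 6 tested rows, 3 with differences above 0 and 3 below. Of these 6, 3 had groups without overlap, all higher in LV, beside 4.25% of all tested rows. The stretch with Wt1 had 2 tested rows above 0 and 2 below, and that with Tcf21 had 2 above 0. None of these rows passed adjustment.

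NONMMUT054852 also had higher values in RV than in LV at day 7. The day 7 libraries do not enter the day 3 difference, but the fit shares its estimate of spread over all ages. At day 7 the FPKM of the row was 1.26, 2.16 and 2.69 in LV and 5.58 and 6.16 in RV, and the groups did not overlap. At day 0 it was 9.64, 4.19 and 8.58 in LV and 11.8, 6.89 and 14.2 in RV, and the groups overlapped. The LV means were 7.47, 2.77 and 2.03 at days 0, 3 and 7, and the RV means were 11.0, 11.3 and 5.87, so between day 0 and day 3 the LV mean was lower and the RV mean nearly the same. The change between ages within a ventricle was not tested. The log2 differences were 0.57 at day 0, 1.98 at day 3 and 1.54 at day 7. The day 3 difference exceeded the mean of the other ages by 0.92, with an unadjusted limma p of 0.028 that did not pass adjustment. In the same test 0 of 11079 rows, or 0.0%, passed at an adjusted p under 0.05, and 484 (4.37%) had an unadjusted p under 0.05.

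Size of difference was then used to pick rows, among those with a day 3 mean of at least 1 FPKM, no overlap between the ventricles and an unadjusted p under 0.05. There were 86 such rows of 1577, or 5.45%, of which 53 were higher in RV and 33 higher in LV. Groups without overlap made up 9.47% of all tested rows, 578 (5.22%) higher in RV and 471 (4.25%) higher in LV. The 8 largest differences in each direction are described next. Apart from NONMMUT054852 none passed adjustment in the unpaired fit, so the values are a description of these libraries. The closing section names those called in a fit with replicate number as a term.

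TCONS_00049214 (chr6:87387308-87387671) had 0.878, 1.01 and 0.537 FPKM in LV and 2.26, 3.59 and 3.71 in RV. Every RV library was above every LV library, but the values rest on an estimated 3.5 to 22.5 fragments per library. The log2 difference was 1.86 ± 0.35 (SE), with a limma adjusted p of 0.107. At day 0 the means were 27.4 FPKM in LV and 27.1 in RV, a log2 difference of -0.02. At day 7 they were 0 in LV and 0.07 in RV. The row lies in a stretch of 12 coding genes that includes Bmp10, a growth factor of trabecular and atrial muscle, and Antxr1. Gene order does not show whether the row overlaps a coding exon of Bmp10 or another of them, so its value may include reads of a coding transcript. TCONS_00020673 (chr15:11835483-11835939) had 2.22, 4.62 and 7.09 FPKM in LV and 10.4, 10.9 and 13.7 in RV. Its LV values were spread over a wider range than its RV values, and the log2 difference was 1.45.

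The row TCONS_00014854 (chr13:55285808-55290597) was the most abundant of those higher in RV, with 6.28, 5.86 and 8.19 FPKM in LV and 14.1, 12.4 and 18.8 in RV. It rests on 532 to 1499 estimated fragments per library, and the log2 difference was 1.14 ± 0.30 (SE). NONMMUT040036 (chr2:132691384-132694319) had little spread between replicates, with 0.909 ± 0.0503 (SD, n = 3) in LV and 2.45 ± 0.122 (SD, n = 3) in RV. Its log2 difference was 0.31 at day 0, 1.34 at day 3 and 1.25 at day 7. For NONMMUT058104, which has no position, LV replicate 2 at 0.179 lay far below LV replicates 1 and 3 at 1.09 and 1.20, while RV ranged from 1.43 to 2.47. Its difference of 1.31 was 0.59 without LV replicate 2. TCONS_00023821 (chr16:62732306-62732550) had means of 1.54 in LV and 3.51 in RV from an estimated 5 to 16.5 fragments. Both of these had differences below 0 at day 0 and day 7.

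Elastin is the protein of elastic fibres in vessel walls, valves and the connective tissue of the heart, and its gene, Eln, was the locus with a gene symbol among these rows. NONMMUT054793 (chr5:135214103-135214688) lies between rows matched to Eln transcripts, in a stretch that holds Eln and no other coding gene. It had 0.682, 0.540 and 0.524 FPKM in LV and 1.45, 2.29 and 1.54 in RV, a log2 difference of 1.43 ± 0.35 (SE) and a limma adjusted p of 0.384. These values rest on an estimated 5.5 to 18.5 fragments per library. The log2 difference was -0.03 at day 0 and 0.64 at day 7. The flanking rows were looked up after these values were seen. NONMMUT054792 had 0.210, 0.144 and 0.101 FPKM in LV and 0.575, 0.483 and 0.509 in RV, with a log2 difference of 1.33 and a limma adjusted p of 0.506. In NONMMUT054794 the groups overlapped, because RV replicate 2 at 0.172 lay within the LV range of 0.110 to 0.208. Its other RV values were 0.547 and 0.486. A further row, NONMMUT054795, overlaps one of them and differed by -0.16. Reads of the coding Eln transcript and of a noncoding row inside the gene on the same strand cannot be separated in these values.

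**Figure D2:**
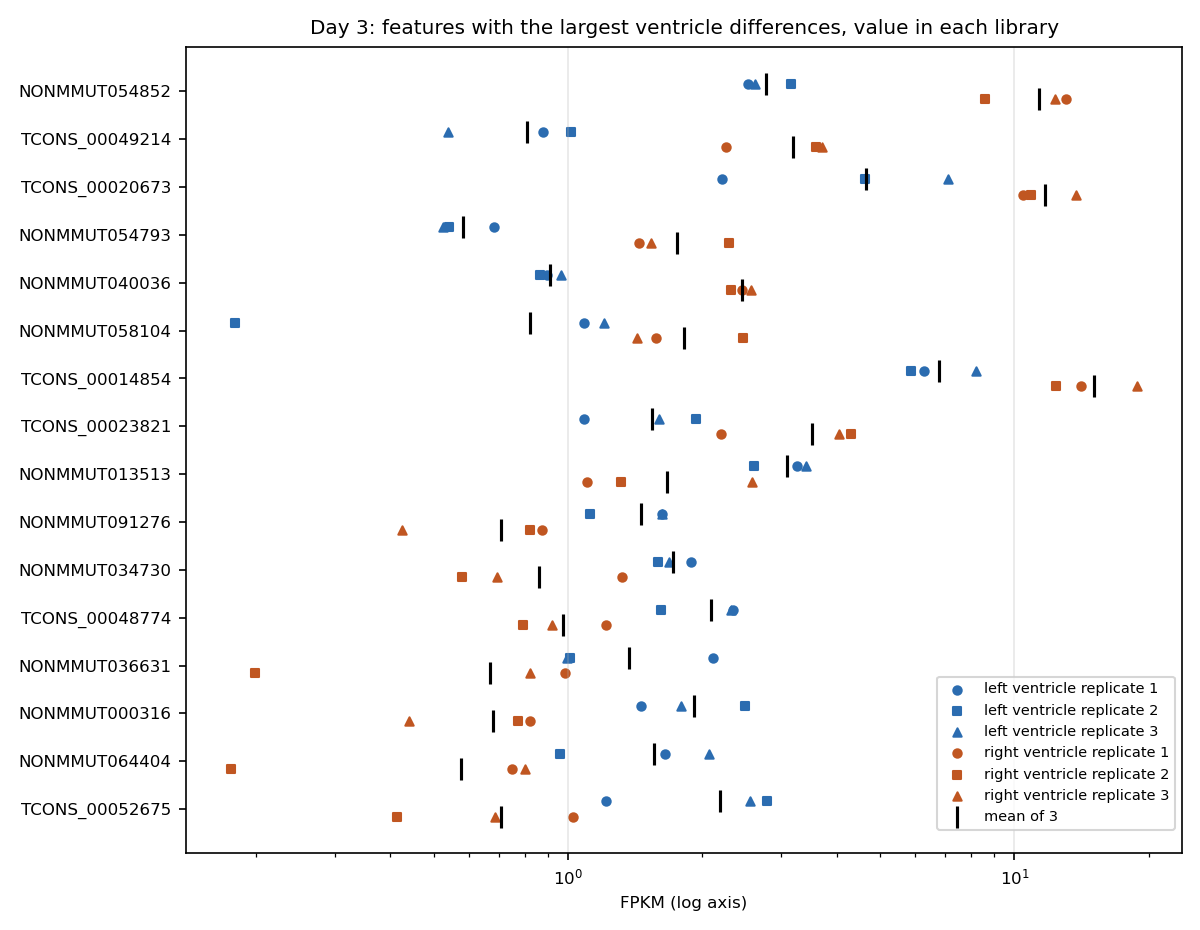
FPKM (log axis) in each of the 3 left ventricle and 3 right ventricle libraries at day 3 for the 16 rows with the largest differences, with the mean of each group as a black bar. No row has overlapping groups, because rows were picked for that, and right ventricle replicate 2 is far below its group in NONMMUT064404 and NONMMUT036631.

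In the other direction, TCONS_00048774 (chr6:51279292-51291070) had 2.34, 1.62 and 2.32 FPKM in LV and 1.21, 0.792 and 0.920 in RV. Its log2 difference was -1.03 ± 0.23 (SE), with a limma adjusted p of 0.246, and it was 0.06 at day 0 and -0.68 at day 7. It rests on an estimated 129 to 517 fragments per library and lies in a stretch between matches to Gm31579 and Gm6559 with no coding gene. NONMMUT000316, which has no position, had 1.46, 2.50 and 1.79 FPKM in LV and 0.821, 0.774 and 0.440 in RV. Its log2 difference of -1.38 was -1.48 without RV replicate 2.

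In a pair of other rows RV replicate 2 was far below RV replicates 1 and 3. NONMMUT064404 (chr8:3567988-3578597) had 1.65, 0.960 and 2.07 FPKM in LV and 0.747, 0.176 and 0.802 in RV, and its difference of -1.42 was -0.86 without that library. NONMMUT036631 (chr2:31073231-31075068) had a difference of -1.06 with RV replicate 2 and -0.48 without it. Another row, NONMMUT036630, has the same position, and with both summed the difference was -0.18. The rows TCONS_00052675, NONMMUT034730, NONMMUT091276 and NONMMUT013513 had differences of -1.49, -0.99, -0.98 and -0.94.

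The 86 rows had the same sign at day 0 in 46 cases (53.5%) and at day 7 in 60 cases (69.8%). The libraries of the 3 ages are distinct. Over the 1577 rows from which they were picked, the same sign was seen in 57.1% at day 0 and 53.6% at day 7. The share of the 86 was thus lower at day 0 and higher at day 7, and neither gap was tested.

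**Figure D3:**
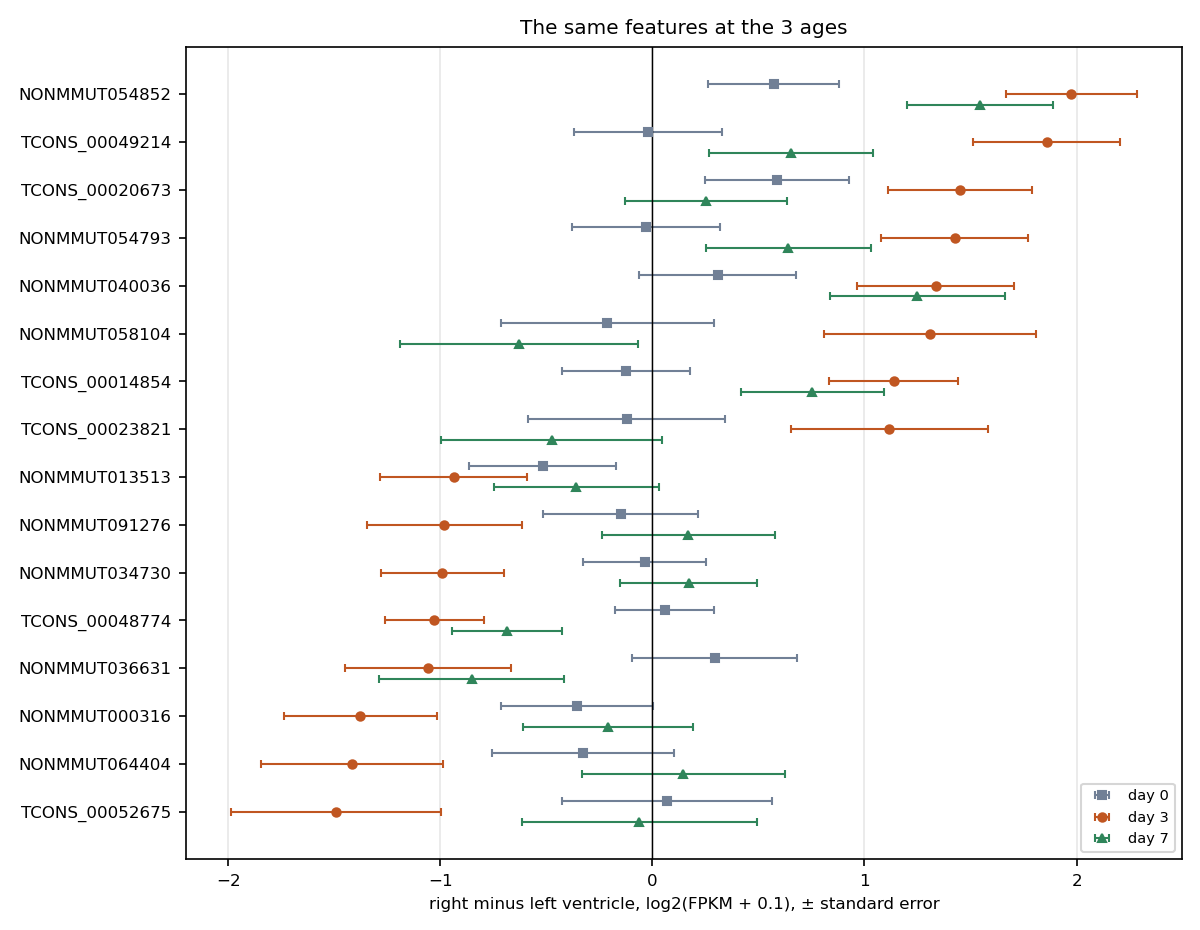
Right minus left ventricle difference in log2(FPKM + 0.1), with its standard error, at day 0, day 3 and day 7 for the 16 rows picked at day 3. NONMMUT054852 and NONMMUT040036 have day 7 differences of 1.54 and 1.25 and day 0 differences of 0.57 and 0.31. NONMMUT058104 and TCONS_00023821 fall below 0 at both other ages.

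A few abundant rows set the level of the libraries, and none of the 10 most abundant passed adjustment in the unpaired fit. NONMMUT071578 (chrM:1094-3703) runs over both the mitochondrial 16S ribosomal RNA gene mt-Rnr2 and the coding gene mt-Nd1, a subunit of respiratory complex I. It had means of 16760 ± 3603 (SD, n = 3) in LV and 16029 ± 1566 (SD, n = 3) in RV. The row matched to mt-Rnr1, the mitochondrial 12S ribosomal RNA, is NONMMUT071574 (chrM:70-1024). It had 1048, 1515 and 1065 FPKM in LV and 1696, 2827 and 1591 in RV. The groups did not overlap, and replicate 2 was highest in both ventricles. The log2 difference was 0.72 with a limma adjusted p of 0.814, and 0.46 without RV replicate 2. NONMMUT062940, which has no position, had 139.9, 181.1 and 154.5 FPKM in LV and 187.2, 264.5 and 228.9 in RV. It differed by 0.51 with a limma adjusted p of 0.626, by -0.16 at day 0 and by 0.59 at day 7. TCONS_00024059, which overlaps a row matched to Gm49708, had 223 ± 14.9 (SD, n = 3) in LV and 217 ± 4.53 (SD, n = 3) in RV. NONMMUT006965, matched to Mrpl42, a mitochondrial ribosomal protein gene, had 123 in LV and 111 in RV. NONMMUT071605, TCONS_00065404, NONMMUT063778, NONMMUT0047 and NONMMUT011619 had log2 differences of 0.37, -0.09, -0.15, -0.03 and 0.38. Replicate 2 moved a pair of these: NONMMUT071605 was 0.16 without RV replicate 2 and 0.56 without LV replicate 2, and NONMMUT011619 was 0.18 without LV replicate 2.

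The fit with a term for replicate number called 0.0993% of the tested rows, some of them described above, and 3 more with a day 3 mean of at least 0.5 are given here. NONMMUT016573 (chr13:21856098-21859692) had 4.38, 3.27 and 5.03 FPKM in LV and 7.67, 6.11 and 9.92 in RV. NONMMUT066471, matched to Gm39214, had 6.45, 5.52 and 5.36 in LV and 3.99, 2.37 and 2.78 in RV. The matched transcript overlaps an exon of the coding gene Itfg1, so the value of this row may include reads of a coding transcript. NONMMUT000571 (chr1:36587039-36588149) had 28.1, 26.2 and 36.3 in LV and 20.4, 16.2 and 16.8 in RV. None of the 3 had overlapping groups, and their limma adjusted p values in the unpaired fit were 0.489, 0.356 and 0.672.

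Hand2os1 is the lncRNA gene that starts beside Hand2, a transcription factor of right ventricle development, and is transcribed away from it. The RefSeq windows around the starts of both genes share 223 bases, so the Hand2os1 window is shown because it covers the start region of both. It runs across the start, mostly upstream of it, on the minus strand at chr8:57320810-57321109 in GRCm38.p6, a different build from the positions of the rows. Capitals mark matches to AGATAA, the motif bound by GATA factors, and to GGTGTG, part of the T-box motif, searched on both strands.
Hand2os1: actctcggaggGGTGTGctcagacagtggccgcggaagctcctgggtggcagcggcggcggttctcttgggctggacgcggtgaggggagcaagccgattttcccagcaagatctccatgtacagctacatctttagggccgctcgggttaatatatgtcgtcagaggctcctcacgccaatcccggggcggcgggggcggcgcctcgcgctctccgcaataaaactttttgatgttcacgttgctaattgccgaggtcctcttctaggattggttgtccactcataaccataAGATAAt
The window holds 1 match to each, and the matches do not overlap. Of 32851 windows of this length, 11.2% hold AGATAA and 19.05% hold GGTGTG. A match is a description of the letters and not a binding site.

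All 4 tested Hand2os1 rows had differences above 0, as did 5578 of the 11079 tested rows, and none of the 4 passed the test. The row matched to it, NONMMUT065695 (chr8:59793968-59797621), had 0.678, 0.627 and 0.474 FPKM in LV and 0.807, 0.685 and 0.747 in RV. The groups did not overlap, but the log2 difference of 0.30 was no larger than its standard error of 0.30. A longer row over it, TCONS_00058571, had 10.2, 8.89 and 10.6 in LV and 10.4, 13.0 and 10.5 in RV, and the groups overlapped. TCONS_00058570 and NONMMUT065691 differed by 0.23 and 0.25. Beyond these, NONMMUT065700 lies in a stretch that holds Hand2, Scrg1 and Sap30. It had 0.650, 0.861 and 0.818 FPKM in LV and 1.27, 1.61 and 1.22 in RV, a log2 difference of 0.74 with a limma adjusted p of 0.626. In the same stretches TCONS_00056886 went the other way, at -1.49. Of the 10 tested rows in stretches with Hand2, 7 had differences above 0 and 3 below, and none passed adjustment. Groups without overlap were 3 higher in RV and 1 higher in LV, beside 5.22% and 4.25% of all tested rows.

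Rows in the stretch that holds Tbx5 and Tbx3 were lower in RV in value, although none passed the test. Tbx5 is a T-box factor with more expression in the left than the right ventricle in the embryo, and Tbx3 is a factor of the conduction system. The stretch holds 9 coding genes, and 6 of its 10 rows were tested. All 6 had differences below 0, as did 5501 of the 11079 tested rows. The median of the 6 was -0.51, beside 0.0011 over all tested rows. Gene order does not show which of the 9 coding genes these rows belong to. Stretches with other listed chamber genes went both ways. With Kcnip2, 3 tested rows had differences above 0 and 4 below, with Hey1 1 above and 2 below, and with Bmp10 2 above. TCONS_00047455 (chr5:120255266-120282293) had 0.776, 0.522 and 1.04 FPKM in LV and 0.120, 0.127 and 0.245 in RV. These groups did not overlap, and the log2 difference was -1.73 ± 0.39 (SE) with a limma adjusted p of 0.246. It was -0.65 at day 0 and -1.48 at day 7. TCONS_00047453 and TCONS_00047451 cover the same span and differed by -0.54 and -0.87, so the 3 rows may share reads. In the stretch of 4 coding genes that holds Myl2, the ventricular myosin light chain gene, TCONS_00045588 had 6.80, 8.01 and 7.98 FPKM in LV and 4.96, 6.52 and 6.03 in RV. It differed by -0.38 with a limma adjusted p of 0.792.

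**Figure D4:**
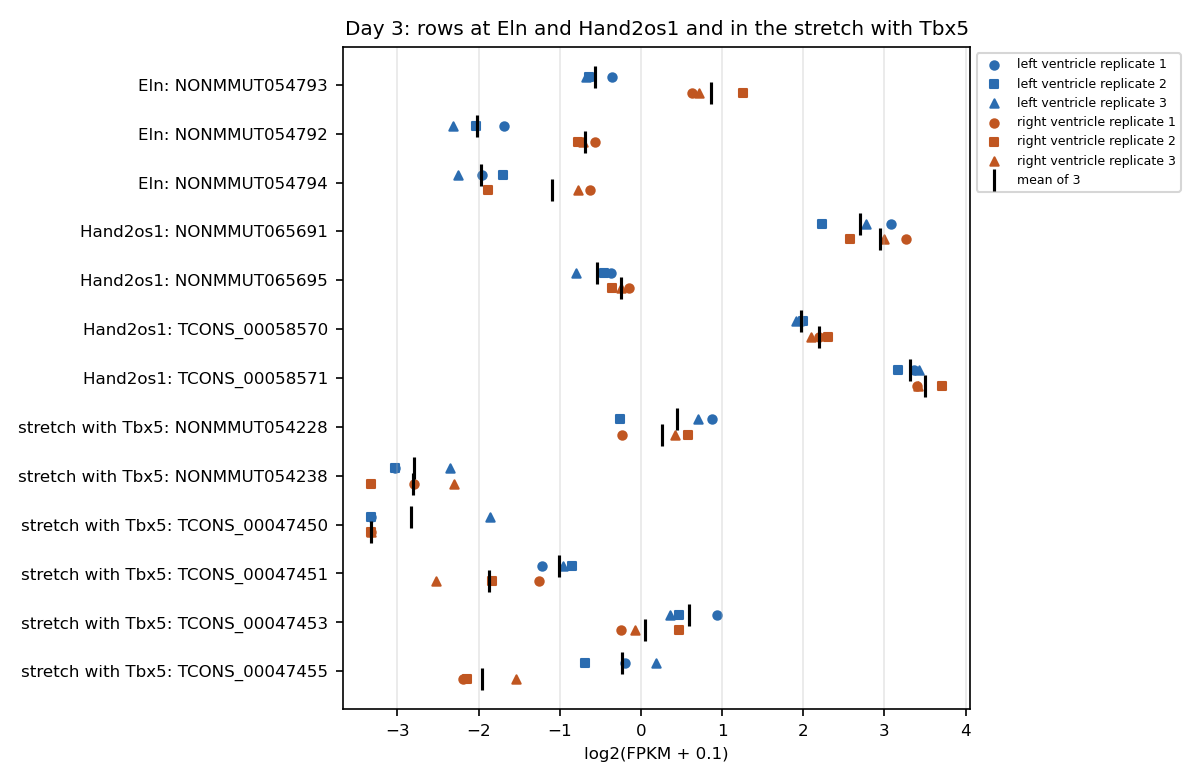
Values in log2(FPKM + 0.1) in each day 3 library for tested rows at Eln, at Hand2os1 and in the stretch of genes with Tbx5, with group means as black bars. The groups are apart in NONMMUT054793 and NONMMUT054792 at Eln and in TCONS_00047455, and close or overlapping at Hand2os1.

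Gene lists could be read only through matched rows, which made up 12.8% of the tested rows, so each list is a small sample of its genes. None of the rows in any list passed adjustment. For chamber genes, 7 of 34 had a row and 6 rows were tested, with a median log2 difference of 0.29. One of these, a row at Hey2, a repressor active in ventricular muscle, had an unadjusted limma p under 0.05 at 0.69. For heart and muscle lncRNAs, 2 of 20 had a row, Hand2os1 and Sorbs2os, and the 5 tested rows had a median of 0.23. For imprinted genes, 4 of 13 had a row and the 5 tested rows had a median of -0.02, with Peg13, an imprinted lncRNA, at 0.338, 0.653 and 0.674 FPKM in LV and 0.619, 0.430 and 0.547 in RV. For hosts of small nucleolar RNAs, 2 of 17 had a row, Snhg12 and Snhg20. The 7 tested rows had a median of -0.37, which was 0.33 without RV replicate 2. For nuclear lncRNAs, 2 of 7 had a row, Ftx and Jpx, and the 1 tested row differed by 0.33. No row was matched to the listed genes of atrial muscle, smooth muscle, endothelium, fibroblasts, lung and thymus, or brown fat. Single genes of the conduction and blood lists had rows, none of which passed the filter on low values.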

How the data were processed

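The submitters' processing notes name STAR 2.4.0j and mm10. The deposited values carry no unit and were read as FPKM, from their steps per row span. Of 3690 matched rows outside chrM, 78 lay at the GRCm38 position, so the build of the positions is not given in the sources used here. No position was moved between builds. A row got a symbol where a GENCODE M21 transcript had its exact span and neighbouring matches had the same shift (3693 of 23940 rows). Other rows are described by matches they overlap or lie between, which was chosen after the files were seen.

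Log2(FPKM + 0.1) was fitted with limma 3.58.1 (R 4.3.3; group means of 17 libraries, variance trend, robust) for rows with at least 0.1 in at least 2 libraries, two-sided, with Benjamini-Hochberg adjustment. The script was tested on simulated data. Rows were named if called, called with replicate number as a term (day 3 mean at least 0.5, up to 15 per direction), among the 8 largest differences per direction, among the 10 most abundant, or listed. The members, lists and rules were chosen with earlier results of these data known. The labels call the samples biological replicates.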

Additional observations from a re-analysis of the deposited data

How the results depend on the processing

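The limma count of 1 called row was 2 with median scaling (adding TCONS_00013953, lower in RV) and 2 with a pseudocount of 0.01 (adding TCONS_00039554, lower in RV). It was 0 without the low-value filter (1254 at an unadjusted p under 0.05) and 0 without the variance trend (651). Leaving out 1 library gave 0 to 3 calls; the 3, without RV replicate 1, were NONMMUT008011, TCONS_00013953 and TCONS_00037389, all lower in RV. Leaving out replicate 2 of both ventricles, chosen after seeing the data, gave 0 (529 unadjusted). NONMMUT054852 was called under 9 of 19 alternatives, with a log2 difference of 1.69 to 2.26. The test of day 3 against the other ages stayed at 0 in every alternative run, and the median difference ranged from -0.083 to 0.095 when 1 library was left out.

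With a replicate block in the fit over 17 libraries, 11 rows were called (8 higher in RV, 3 lower), 0.0993% of those tested. Higher were NONMMUT054852, NONMMUT062940, TCONS_00014854, NONMMUT071574, NONMMUT071605, NONMMUT016573, TCONS_00061450 and TCONS_00049214, and lower were TCONS_00013953, NONMMUT066471 and NONMMUT000571, with limma adjusted p from 0.0029 to 0.0405. With the replicate block in the 6 day 3 libraries alone 0 were called (721 unadjusted), and with the block but without replicate 2 of both ventricles 2 were, NONMMUT054852 and NONMMUT011874. Same-numbered LV and RV libraries at day 3 had correlations of deviations of 0.12, 0.17 and 0.045, and different numbers -0.13 to 0.030. The labels number the replicates but do not say that a number marks an animal, so the main fit was unpaired. At day 3, 6 of 6 libraries correlated best with their own number. Over the 3 ages, 8 of 8 same-numbered pairs shared a side of the split by row NONMMUT071594. All day 7 libraries had low values. Whether a number marks an animal was not tested.

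Of 660 single values, 16 changed sign, all in rows with no call. NONMMUT071578 was 0.025 without replicate 2 of both ventricles, with and without the block, and -0.22 to 0.095 when 1 library was left out. TCONS_00065404 was 0.071 without that pair, with and without the block, and -0.25 to 0.068 when 1 library was left out. TCONS_00024059 was -0.072 to 0.017 when 1 library was left out, and NONMMUT0047 was 0.026 without the pair, with and without the block. NONMMUT005648 was -0.42 to 0.23 when 1 library was left out. NONMMUT066678 was -0.30 without the pair, with and without the block, -0.13 with rows at one position summed, and -0.12 to 0.65 when 1 library was left out. Beyond the settings that left out libraries, the cause was not tested. Depth limits rows such as TCONS_00049214 (an estimated 3.5 to 22.5 fragments per library).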
